A study of Mus musculus with 6 samples.

Results

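The transcripts of the oxidative phosphorylation machinery were examined in mouse liver by the complex they belong to, on a high-fat and on a low-fat diet. Probe sets were taken as members when their single gene symbol in the platform annotation began with Nduf (complex I), Uqcr (complex III), Cox4, Cox5, Cox6, Cox7 or Cox8 (complex IV) or Atp5 (complex V), or was Sdha, Sdhb, Sdhc, Sdhd (complex II) or Cyc1 (complex III). This gave 100 probe sets for 72 genes, out of 12488 probe sets on the array. Complex I had 42 probe sets, complex II 4, complex III 9, complex IV 23 and complex V 22. A prefix is not a proof of function: Ndufaf1 and Ndufaf4, which came in with complex I, encode factors that help assemble the complex and do not stay in it.

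Liver RNA came from C57BL/6 mice, an inbred laboratory strain. A high-fat diet of the Western type had been fed to 3 of the samples' mice and a low-fat diet to the other 3, both for 12 weeks, and each sample was read on an Affymetrix array. The keywords of the labels name LDL receptor deficiency, but no sample used here is labelled as deficient, and the labels give no age. They call the 3 arrays of a diet replicates without saying whether an array holds 1 animal or a pool, so p-values measure the spread between these arrays, which may be technical.

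Oxidative phosphorylation is the last stage of fuel oxidation, carried out in the inner mitochondrial membrane. Complex I takes electrons from NADH and complex II, which is also an enzyme of the citric acid cycle, takes them from succinate. Both hand them to ubiquinone, complex III passes them on to cytochrome c, and complex IV gives them to oxygen. The proton gradient built along the way drives complex V, the ATP synthase. Hepatocytes are rich in mitochondria and draw on the chain for gluconeogenesis, urea synthesis and the oxidation of fatty acids. Most subunits are encoded in the nucleus, and all members described here are nuclear genes.

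No subunit transcript passed the test between the diets. Of the 100 probe sets, 84 for 69 genes had at least 3 of the 6 arrays above the floor intensity of 68.9 and were tested. With limma, 0 of these 84 had an adjusted p under 0.05, where 0.827% of all 8950 tested probe sets did. An unadjusted p under 0.05 was reached by 1 subunit probe set, 1.19% of those tested, against 9.07% of all tested probe sets. The groups of arrays did not overlap for 1 subunit probe set that was higher on the high-fat diet (7.34% of all tested) and for 1 that was lower (6.76% of all tested), where 14.1% of all did not overlap in either direction. Over all probe sets 74 were called with 6 arrays. Leaving out a single high-fat array gave 75 calls (no array 1), 28 (no array 2) or 59 (no array 3). Without a single low-fat array there were 31 (no array 1), 26 (no array 2) or 45 (no array 3). The number of subunits called was 0 each time.

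The differences themselves were small. Log2 fold changes, given as high-fat minus low-fat diet on intensities raised to the floor, had a median of -0.02 over the subunits and of 0.003 over all tested probe sets. The subunit median ran from -0.10 to 0.06 over the alternatives, and its sign was not stable: it was 0.06 without high-fat array 3 and -0.10 with the Gapdh control ratio as a covariate. The median size without regard to sign was 0.10 for subunits and 0.18 for all tested probe sets. There were 52 subunit probe sets with a log2 fold change below 0 and 32 above, and 49.5% of all tested probe sets lay below 0. A difference above 1.5-fold in either direction was measured for 2 subunit probe sets, both of complex I, which is 2.38% of those tested against 8.91% of all.

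A p that misses the threshold does not show that levels were alike, so the intervals matter more here. The 95% interval of the fold change lay within 2-fold in both directions for 74 of 84 subunit probe sets (88.1%), against 75.2% of all tested probe sets, and within 1.5-fold for 55 (65.5%), against 29.1%. These intervals are limma's for single probe sets and are not widened for their number. Subunit probe sets were mostly bright, and bright probe sets are measured more tightly: 54 of the 84 had a mean intensity over 1000, as did 19.7% of all tested. Among those 54, all had an interval within 2-fold, against 91.2% of the 1766 probe sets of the whole array over 1000, and 1 had an unadjusted p under 0.05, which is 1.85% against 16.2%. The sets are not matched beyond that limit: the median intensity was 3817 for the 54 and 2048 for the 1766. The remaining 30 subunit probe sets were dimmer, and the interval stayed within 2-fold for 20 of them.

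**Figure D1:**
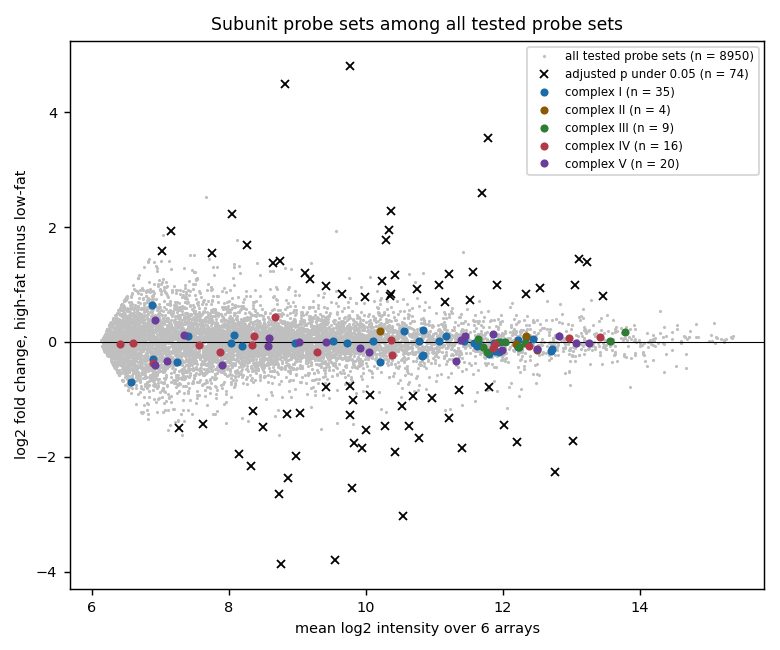
Log2 fold change (vertical axis, high-fat minus low-fat diet) of each tested probe set against its mean log2 intensity over the 6 arrays (horizontal axis). Grey dots are all 8950 tested probe sets, crosses the 74 with an adjusted p under 0.05, and coloured points the 84 subunit probe sets by complex, which lie between -0.70 and 0.65 with none among the crosses.

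By complex the medians lay close to 0. Complex I had a median log2 fold change of -0.02 over 35 tested probe sets, complex II of 0.04 over 4, complex III of -0.01 over 9, complex IV of -0.05 over 16 and complex V of -0.02 over 20. The number below 0 was 21, 2, 6, 11 and 12 in the same order. No test was run between complexes, and the arrays of one diet were further apart than these medians, as described next. Leaving out high-fat array 3 turned the medians of complexes I, III and IV to 0.06, 0.08 and 0.07.

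**Figure D2:**
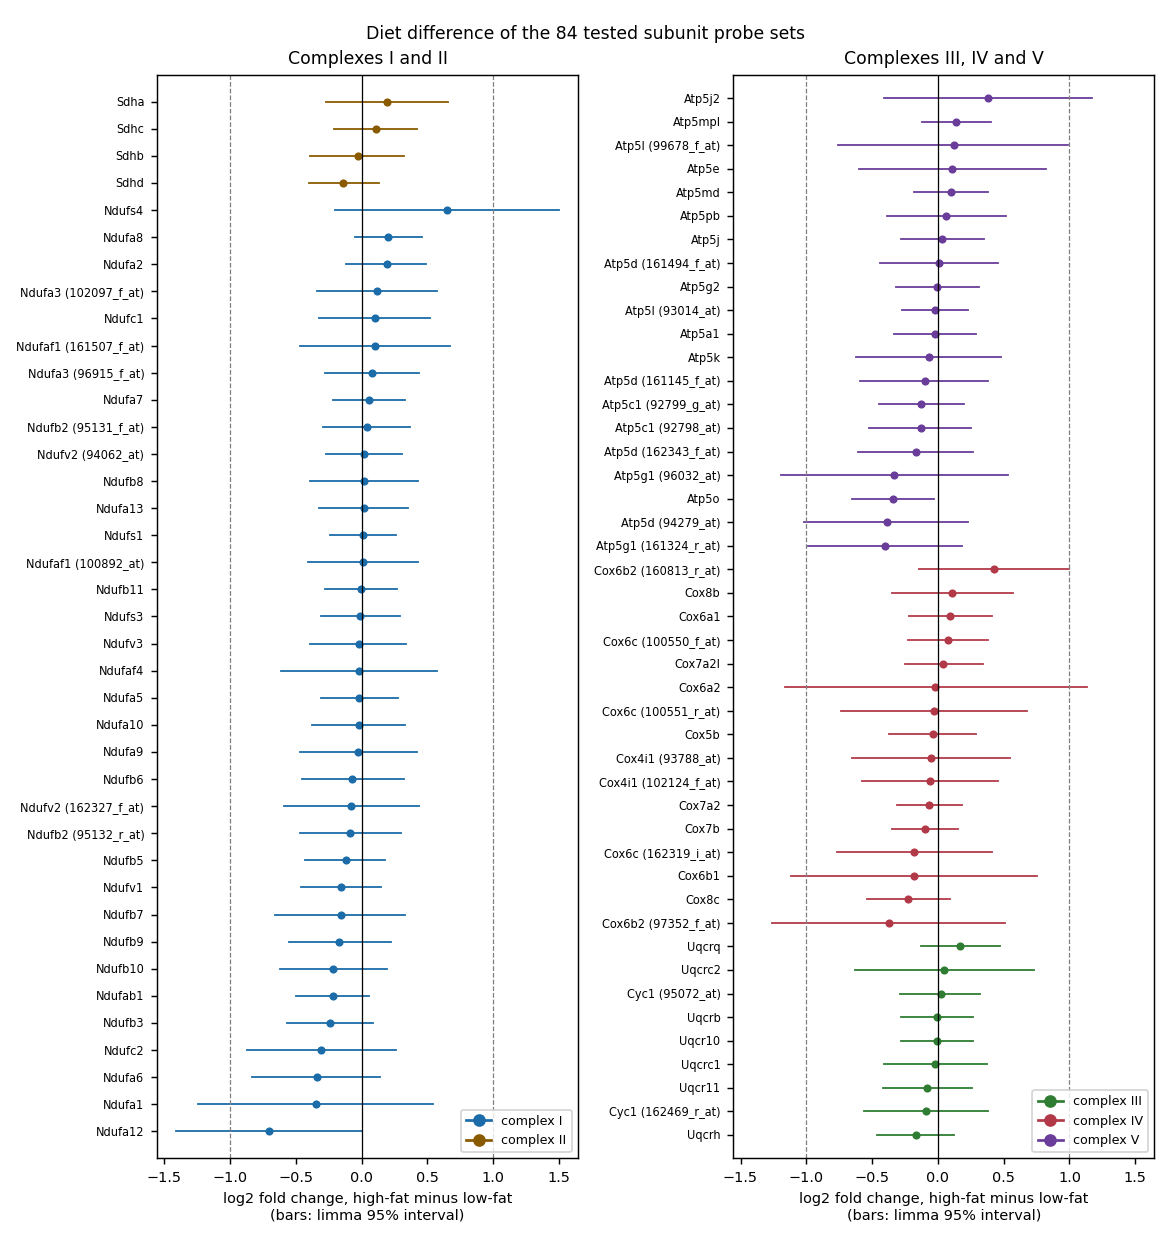
Log2 fold change (horizontal axis, high-fat minus low-fat diet) of the 84 tested subunit probe sets, one line each, with limma's 95% interval as a bar, sorted within each complex. Dashed lines mark a 2-fold difference, and only the interval of Atp5o leaves out 0.

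Subunit levels differed between arrays of one diet. For each array the median over the subunits of the log2 intensity, taken relative to the probe set's own mean over the 6 arrays, was 0.12, 0.03 and -0.15 on high-fat arrays 1, 2 and 3 and -0.005, 0.07 and -0.01 on low-fat arrays 1, 2 and 3. High-fat array 3 was thus the lowest and high-fat array 1 the highest, and the low-fat arrays lay between them. High-fat array 3 gave the lowest of the 6 intensities for 38 of the 84 probe sets (45.2%), as it did for 16.1% of all tested probe sets. High-fat array 1 gave the highest for 26 (31.0%), against 14.2% of all.

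By its median high-fat array 3 was low in each complex, though not on every probe set. Its median was -0.15 in complex I, -0.08 in complex II, -0.19 in complex III, -0.13 in complex IV and -0.23 in complex V, the lowest of the 3 high-fat arrays in each. In complex II high-fat array 2 was close to it, at -0.04. Sdha and Sdhc lay above their own mean on high-fat array 3, by 0.298 and 0.033. Complex III stood apart in that low-fat array 3 was low as well, at -0.16. Over all 8950 tested probe sets the medians of the arrays ran only from -0.02 to 0.03. Among all probe sets with a mean intensity over 1000, high-fat array 3 gave the lowest value for 23.8%, against 59.3% of the 54 bright subunit probe sets. Under other scalings, chosen after the data were seen, that array gave the lowest value for 44.0% of subunit probe sets after quantile normalization and 48.8% after scaling to a common median, against 18.4% and 20.1% of all tested.

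Control ratios that bear on RNA quality differed between the arrays too, and a higher ratio goes with more degraded RNA. The ratio of the 3' to the 5' control probe set of Gapdh was 1.22, 1.23 and 0.89 on the high-fat arrays and 1.04, 1.07 and 0.82 on the low-fat arrays, so the arrays numbered 3 had the lowest ratio in each diet. For pyruvate carboxylase the ratios were 6.94, 7.96 and 2.62 against 3.78, 4.5 and 2.65. For beta-actin they were 1.62, 1.96 and 1.79 against 1.63, 1.56 and 1.75, where the arrays numbered 3 were not the lowest of either diet. Between the diets the exact permutation p was 0.3 for Gapdh, 0.3 for beta-actin and 0.4 for pyruvate carboxylase, where 0.1 is the smallest that 3 arrays against 3 can give. Their part in the low subunit values of high-fat array 3 was not tested. With the Gapdh ratio as a covariate, limma called 0 subunits. An unadjusted p under 0.05 was reached by 12 of the 84 (14.3%), near the 12.5% of all tested probe sets in that fit. Of these 12, 11 had a log2 fold change below 0 and 1, Sdha, above 0. The smallest adjusted p among them was 0.0540, for Ndufa6, with a log2 change of -0.60.

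**Figure D3:**
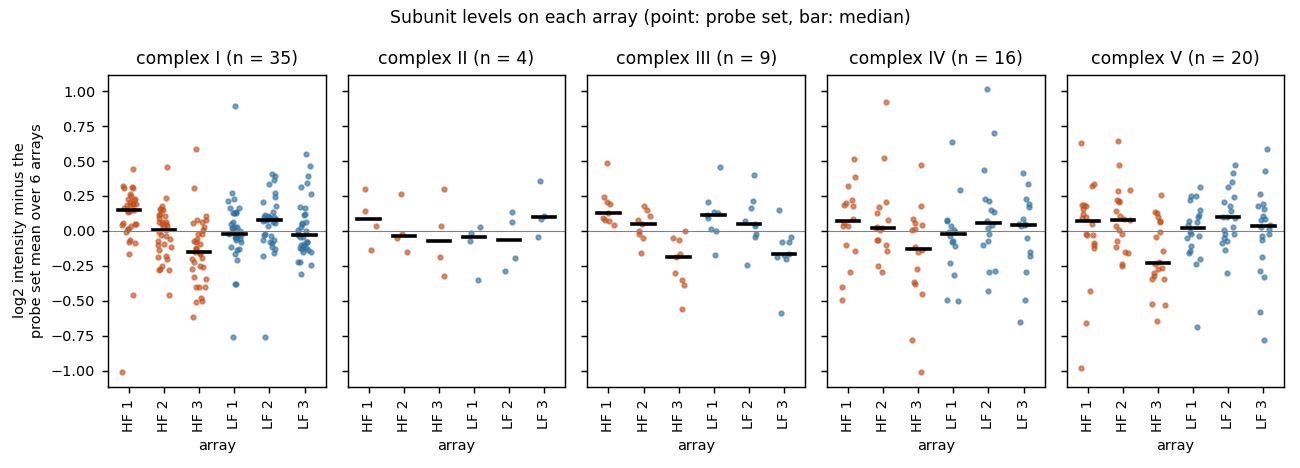
Log2 intensity of each subunit probe set minus its mean over the 6 arrays (vertical axis), by array (HF, high-fat; LF, low-fat) and complex. Each point is a probe set and each bar the median, and high-fat array 3 has the lowest high-fat median in each complex, from -0.08 in complex II to -0.23 in complex V.

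Complex I oxidises NADH at the tip of its hydrophilic arm, where Ndufv1 carries the flavin and Ndufv2 and Ndufs1 hold iron-sulphur clusters. Ndufv1 read 6778, 6586 and 5742 on high-fat arrays 1, 2 and 3 and 8074, 7003 and 6266 on the low-fat arrays. The highest high-fat value of Ndufv1 fell among the low-fat values, and the difference was -0.16 ± 0.14 (log2, SE; limma's adjusted p 0.833). Ndufs1 had intensities of 1838, 1826 and 1652 against 1710, 1732 and 1831, which overlapped almost fully, and its 95% interval ran from -0.24 to 0.26. The Ndufv2 probe set with the suffix _at gave 3232, 2562 and 2632 against 2622, 2957 and 2688, and a dimmer one gave 333, 256 and 267 against 269, 274 and 362. Their log2 fold changes were 0.02 and -0.08, with opposite signs and intervals that overlap. Ndufs3, a core subunit on the path to ubiquinone, had a log2 fold change of -0.01 with an interval from -0.31 to 0.29.

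The 3 complex I probe sets with the smallest p were those of accessory subunits, which surround the catalytic core. Ndufa12 gave the smallest, and it was a dim transcript: it read 45.4, 26.1 and 86.4 on the high-fat arrays and 176, 83.5 and 120 on the low-fat arrays. High-fat array 3 lay above low-fat array 2, and 2 of the 3 high-fat values were under the floor. Its log2 fold change on the floored scale was -0.70 ± 0.31 (SE), with an interval from -1.41 to 0.003 and an adjusted p of 0.551. With the floor at the 10th percentile the change was -1.37, with an adjusted p of 0.540, so its size depends on how dim values are treated.

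Ndufa8, whose protein faces the intermembrane space, had the only tested subunit probe set on which every high-fat array lay above every low-fat array. Its intensities were 2070, 1898 and 1896 against 1624, 1796 and 1673, or 1955 ± 99.8 (SD, n = 3) against 1698 ± 89.0 (SD, n = 3). The log2 fold change was 0.20 ± 0.11 (SE), and an adjusted p of 0.676. Ndufab1 encodes the mitochondrial acyl carrier protein, which also serves fatty acid synthesis in the organelle. It read 1727, 1499 and 1857 on the high-fat arrays and 1846, 2000 and 2052 on the low-fat arrays, where a single pair of values overlapped. The log2 fold change of Ndufab1 was -0.22 ± 0.12 (SE), with an adjusted p of 0.695.

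Ndufs4, an accessory subunit near the NADH-oxidising tip, had the highest log2 fold change of all subunits at 0.65 ± 0.38 (SE). Its arrays read 159, 160 and 123 against 55.2, 57.8 and 171, so 2 low-fat arrays were under the floor and the third was the highest of all 6. The interval of Ndufs4 ran from -0.20 to 1.5 and its adjusted p was 0.708. Ndufa6, also accessory, had 1213, 1238 and 769 against 1388, 1571 and 1086, with high-fat array 3 the lowest. Its log2 fold change without the covariate was -0.34 ± 0.21 (SE), with an adjusted p of 0.729. Ndufs4, Ndufa6 and the subunits outside the smallest p-values were chosen for mention after their values were seen.

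Of the remaining complex I transcripts, several were bright and close to equal between the diets. Ndufb11 read 3582, 3177 and 2877 on the high-fat arrays and 3227, 3368 and 3033 on the low-fat arrays. Ndufb2 was read by a pair of bright probe sets with log2 fold changes of 0.04 and -0.09. The first of these gave 5474, 5176 and 4020 against 4709, 5141 and 4309, the other 5321, 5205 and 3635 against 5007, 5521 and 4355, and high-fat array 3 was the lowest on both. The assembly factor genes Ndufaf1 and Ndufaf4 had log2 fold changes of 0.01 and -0.02 on their brighter probe sets, with adjusted p-values of 0.997 and 0.994.

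Complex II has 4 subunits, and each had 1 probe set. Sdha, the flavoprotein that oxidises succinate, read 1304, 1064 and 1453 on the high-fat arrays and 925, 968 and 1510 on the low-fat arrays. The highest value belonged to a low-fat array, and the difference was 0.19 ± 0.21 (log2, SE; adjusted p 0.877). Sdhb, the iron-sulphur subunit, gave 5753, 4606 and 3751 against 4764, 4908 and 4543, so the high-fat arrays spanned a wider range than the low-fat arrays and enclosed it.

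The membrane anchor subunits of complex II leaned in different directions. Sdhc read 4725, 6225 and 5309 against 4938, 4532 and 5592, with a log2 fold change of 0.11 ± 0.14 (SE). Sdhd read 5920, 5574 and 5090 against 5718, 6354 and 6128, with a log2 fold change of -0.14 ± 0.12 (SE). Their adjusted p-values were 0.908 and 0.830, and the groups overlapped for both. All 4 intervals of complex II lay within 2-fold.

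Complex III was the most tightly measured of the larger complexes, with 8 of 9 intervals within 1.5-fold and 9 of 9 within 2-fold. Outside 1.5-fold was Uqcrc2, a core protein, whose interval ran from -0.63 to 0.73. Uqcrc2 read 4482, 3556 and 2173 on the high-fat arrays and 3471, 4229 and 2135 on the low-fat arrays, with both arrays numbered 3 far below the rest. Uqcrc1, the other core protein, read 6091, 5428 and 4038 against 5951, 5076 and 4599, where the arrays numbered 3 were again the lowest of their diet. Its log2 fold change was -0.02 ± 0.17 (SE).

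Cyc1 encodes cytochrome c1, which passes the electrons to cytochrome c. One of its probe sets gave 13837, 12128 and 10820 against 12213, 12528 and 11460, with a log2 fold change of 0.02, and the other gave 3882, 3482 and 2582 against 4638, 2840 and 3185, with a log2 fold change of -0.09. The intervals of this pair overlapped, and the arrays of the diets overlapped on each.

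Small subunits of complex III held the smallest p-values. Uqcrh, the hinge protein that sits at cytochrome c1, read 3726, 3128 and 3059 against 3714, 4041 and 3380. The log2 fold change of Uqcrh was -0.17 ± 0.13 (SE), with an adjusted p of 0.793. Uqcrq gave 15402, 15985 and 13605 against 14070, 13668 and 12269, with a log2 fold change of 0.17 ± 0.13 (SE) and an adjusted p of 0.812. Uqcr11 gave 5078, 5215 and 3926 against 5307, 5414 and 4281, with a log2 fold change of -0.08 ± 0.15 (SE). The arrays numbered 3 were the lowest of their diet for all of these.

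Complex IV is built around a mitochondrially encoded core, and its nuclear subunits include pairs of isoforms that differ between tissues. Isoform levels cannot be set against one another here, because each probe set has its own response, so each was compared only between diets. All tested probe sets of Cox6a1, Cox6b1, Cox6b2, Cox6c and Cox8b carry a suffix letter before _at. Such letters mark relaxed probe choice, so their readings may include other transcripts. Cox6a1, the form of subunit 6a used in liver, read 12683, 11605 and 10027 on the high-fat arrays and 10980, 11367 and 9713 on the low-fat arrays. Its log2 fold change was 0.09 ± 0.14 (SE), with an interval from -0.22 to 0.41. Cox7a2, the liver form of subunit 7a, was among the steadiest: 4834, 5379 and 5498 against 5477, 5436 and 5514, with an interval from -0.31 to 0.18. Cox7a2l, a relative of subunit 7a that takes part in joining complexes III and IV, gave 1510, 1348 and 1195 against 1317, 1234 and 1375.

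The isoforms known from heart and skeletal muscle were dim or gave no clear reading. Cox6a2 read 184 on high-fat array 2, 71.0 on high-fat array 3 and 197 on low-fat array 2, and was under the floor on the other 3 arrays, at 68.2 and 61.6 on low-fat arrays 1 and 3. The arrays numbered 2 were thus the highest in both diets. Cox7a1 was under the floor on all 6 arrays, at 26.6, 18.9 and 21.9 against 16.8, 65.6 and 31.4, and was not tested. One Cox8b probe set, also under the floor throughout, gave 59.2, 38.1 and 50.5 against 51.3, 67.7 and 36.4, while the other gave 342, 314 and 372 against 345, 270 and 340, with a log2 fold change of 0.11. Beside these, the skeletal muscle actin gene Acta1 read 1771 on high-fat array 2 and 19.4 to 60.0 on the other 5 arrays. Of 16 probe sets for skeletal muscle markers 8 were tested and 0 were called, and their summed intensity was 4975 on high-fat array 2 and 2302 to 2685 on the others. The part of muscle RNA in the Cox6a2 values was not tested.

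Further isoforms of complex IV gave probe sets that disagree. Cox6b2 and Cox8c are known as testis forms. The Cox6b2 probe set with the smallest p of the complex gave 512, 370 and 569 against 390, 430 and 261, and another gave 170, 96.9 and 56.5 against 95.3, 193 and 133. Their log2 fold changes of 0.43 ± 0.25 (SE) and -0.37 ± 0.39 (SE) have opposite signs, the adjusted p-values were 0.711 and 0.873, and a further Cox6b2 probe set was between 3.40 and 12.3 on all arrays. Cox8c gave 1246, 1122 and 1343 against 1242, 1551 and 1568 on one probe set (log2 fold change -0.23 ± 0.14, SE, adjusted p = 0.728) and 5.90 to 19.8 on the other. Cox6b1, the widespread form of subunit 6b, read 272, 335 and 116 against 285, 174 and 310, with an interval from -1.12 to 0.75 that leaves a change of 2-fold possible.

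Cox4i1, the common form of subunit 4, had probe sets reading 342, 371 and 247 against 304, 378 and 310, and 248, 177 and 147 against 190, 187 and 202. Both gave small negative log2 fold changes, of -0.06 and -0.05. Cox6c, which sits in the membrane, had 3 tested probe sets with log2 fold changes of 0.08, -0.18 and -0.03, from the brightest to the dimmest. The brightest of these gave 8210, 8103 and 8327 against 6816, 7612 and 9122. The next gave 473, 683 and 631 against 443, 848 and 789, and the dimmest 27.2, 95.1 and 89.8 against 132, 32.7 and 40.8. Only the brightest had an interval within 1.5-fold, from -0.23 to 0.38.

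The probe sets of Cox5a and of Cox8a, which encode subunits found in most tissues, stayed near or under the floor. Cox8a gave 18.1, 92.4 and 27.9 against 19.3, 36.0 and 25.1, and the 2 Cox5a probe sets lay between 6.60 and 88.4. With Cox7a1 they were the 3 genes that had no tested probe set, and a low reading of a probe set gives only a bound on its transcript. In all, 16 member probe sets were not tested, with intensities from 3.40 to 92.4, and their other genes each had a further probe set that was.

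**Figure D4:**
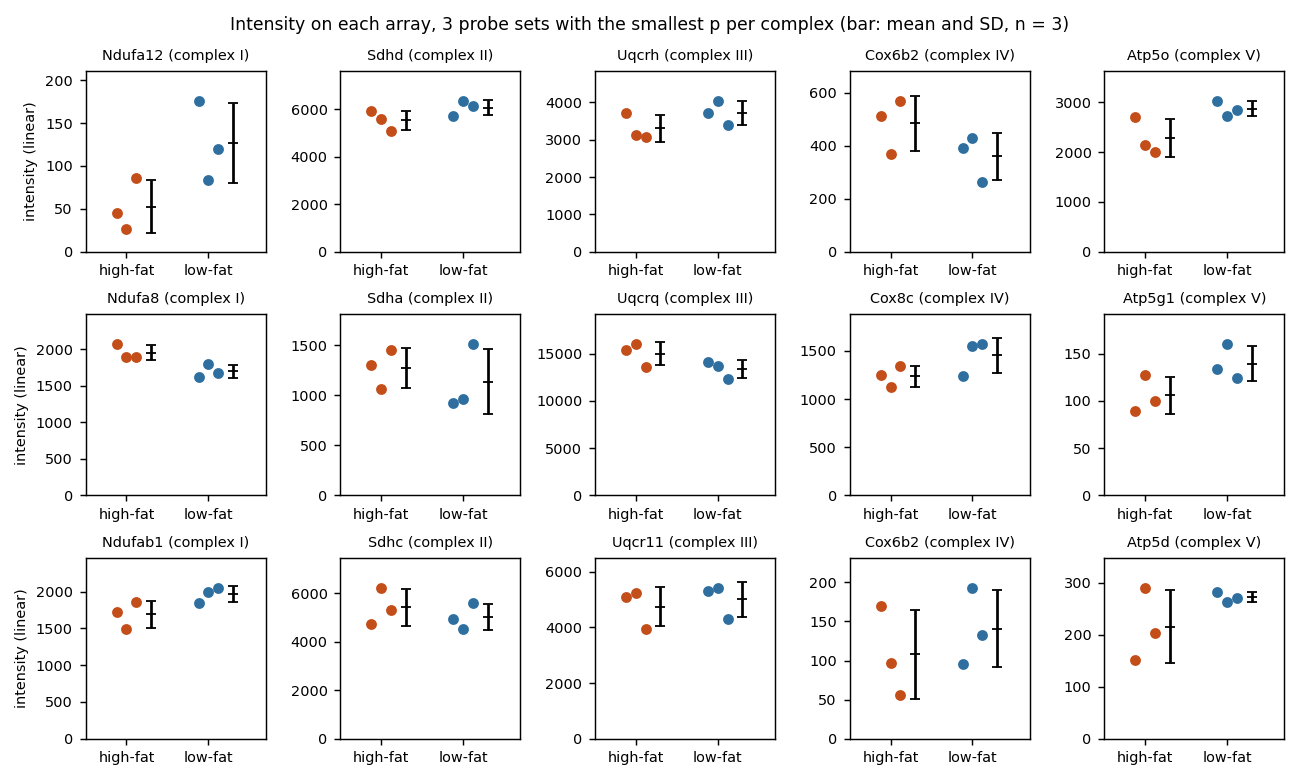
Linear intensity (vertical axis, from 0) on each of the 3 high-fat and 3 low-fat arrays for the 3 probe sets with the smallest p in each complex, with the mean and SD of each diet beside the points. Only Ndufa8 and Atp5o have groups that do not overlap, with means of 1955 against 1698 and 2287 against 2870.

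Complex V makes ATP in its soluble head, which is driven by a ring in the membrane through a central stalk and held by a side stalk. Atp5o encodes the oligomycin sensitivity-conferring protein, which ties the head to the side stalk, and it had the smallest p of all subunits. Its arrays read 2714, 2141 and 2006 on the high-fat diet and 3032, 2734 and 2843 on the low-fat diet. Every high-fat array lay below every low-fat array, and high-fat array 1 missed the range of the low-fat arrays narrowly. The means were 2287 ± 376 (SD, n = 3) and 2870 ± 151 (SD, n = 3), and the fitted level was 1.26-fold lower on the high-fat diet. The log2 fold change of Atp5o was -0.34 ± 0.14 (SE), with an unadjusted p of 0.0355 and an adjusted p of 0.495. Over the alternatives that leave out 1 array its log2 fold change stayed below 0, from -0.47 to -0.25.

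In the head and central stalk no probe set passed the test. Atp5a1, which encodes the alpha subunit of the head, read 10198, 8841 and 10361 against 8830, 9875 and 11155, with a log2 fold change of -0.02 and an interval from -0.33 to 0.29. Atp5c1, the gamma subunit of the stalk, had 2 tested probe sets, each with a log2 fold change of -0.13. Atp5e, the epsilon subunit, had 3521, 3868 and 1788 against 2934, 3555 and 1865, with the arrays numbered 3 the lowest of both diets and an interval from -0.60 to 0.82.

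Atp5d, the delta subunit of the central stalk, was read by 4 tested probe sets that did not share a sign. The brighter ones gave 1081, 1116 and 675 against 1206, 879 and 954, and 1196, 974 and 844 against 1231, 1308 and 866, with log2 fold changes of -0.10 and -0.17. The next gave 559, 574 and 442 against 562, 600 and 415, with a log2 fold change of 0.01. The dimmest gave 151, 290 and 204 against 282, 263 and 271, and its log2 fold change of -0.39 ± 0.28 (SE) had an adjusted p of 0.774. The arrays of the diets overlapped on each of these probe sets. All but the dimmest of them carry a suffix letter before _at.

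The c subunits form the membrane ring and are encoded by several genes for one mature protein. Atp5g1 read 89.4, 128 and 100 on the high-fat arrays and 134, 160 and 124 on the low-fat arrays on one probe set, and 69.2, 159 and 163 against 116, 189 and 164 on the other. Both pointed downward, with log2 fold changes of -0.40 ± 0.26 (SE) and -0.33 ± 0.38 (SE) and adjusted p-values of 0.745 and 0.890. Atp5g2 gave 644, 673 and 735 against 674, 660 and 726, with a log2 fold change of -0.01 ± 0.14 (SE), and its other probe set was between 18.4 and 72.4 and was not tested. Among the small membrane subunits, Atp5l read 8420, 8644 and 8566 against 8859, 8780 and 8376, with an interval from -0.27 to 0.23. Its dimmer probe set gave 149, 253 and 128 against 101, 155 and 243, with an interval from -0.76 to 0.99.

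The rest of the mitochondrial machinery was described from lists of related genes. No probe set of the following lists was called by limma. Of all tested probe sets 0.827% were called and 9.07% had an unadjusted p under 0.05. The citric acid cycle and pyruvate dehydrogenase list had 20 tested probe sets with a median log2 fold change of 0.04, of which 2 had an unadjusted p under 0.05. One of these was Cs, the citrate synthase gene, at 1746, 1966 and 2369 against 1168, 1196 and 1685, a ratio of 1.51 that did not pass (adjusted p 0.287). The other was Pdk4, a kinase that turns off pyruvate dehydrogenase, at 236, 284 and 258 against 202, 46.3 and 151, a ratio of 2.02 that did not pass either (adjusted p 0.446). Mitochondrial ribosomal proteins had 69 tested probe sets with a median of 0.05, and 3 had an unadjusted p under 0.05.

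Proteins that feed electrons to the chain, such as those of the electron transfer flavoprotein, had 11 tested probe sets with a median of 0.02. The smallest p among them was that of Gpd2, the mitochondrial glycerol phosphate dehydrogenase, at 831, 1030 and 771 against 412, 646 and 487. No array of one diet overlapped the other, the log2 fold change was 0.78 ± 0.20 (SE) and the adjusted p was 0.193. Carriers had 16 tested probe sets with a median of -0.004, where the acylcarnitine carrier gene Slc25a20 had a high-fat to low-fat ratio of 1.29 (adjusted p 0.391). Mitochondrial antioxidant genes had 6 with a median of -0.001.

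Assembly and import factors had 23 tested probe sets with a median of -0.11, and 7 of them lay above 0. Of all tested probe sets 49.5% lay below 0. Timm17a, a subunit of the inner membrane import channel, read 470, 394 and 597 on the high-fat arrays and 673, 776 and 845 on the low-fat arrays, with a log2 fold change of -0.66 ± 0.19 (SE) and an adjusted p of 0.260. Regulators of mitochondrial genes had 13 with a median of -0.11 and 4 above 0. The regulator Ppargc1a, a coactivator of respiratory genes, was under the floor on 5 of the 6 arrays, so it was not tested and is not among the 13. Esrra, a nuclear receptor that acts with it, read 1244, 1098 and 868 against 1719, 1229 and 1027 on its brighter probe set. High-fat array 3 gave the lowest value for 3 of the 20 citric acid cycle probe sets, 12 of the 69 of the mitochondrial ribosome and 7 of the 23 for assembly and import, against 16.1% of all tested probe sets. It did so for 4 of the 13 regulator probe sets, 3 of the 6 antioxidant, 2 of the 11 electron entry and 3 of the 16 carrier probe sets. These shares were not tested against that of the subunits.

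The promoters of the subunit genes were read from the RefSeq table of mouse assembly GRCm38.p6, which gives 250 bases before and 50 after a gene's start. Of the 72 genes, 58 were in the table, with 63 promoters. Nuclear respiratory factor 1 and GABPA, also called nuclear respiratory factor 2, are known regulators of respiratory chain genes. The core letters of the first factor's site, GCGC on both sides of a pair of free bases, were found on either strand in 15 of the 63 (23.8%), against 11.0% of the 8409 promoters of genes with a single-gene probe set and 6.2% of all 32851. The letters CCGGAAG, the core of the GABPA site, were found in 16 (25.4%), against 14.4% and 8.9%. TATAAA was found in 7 (11.1%), against 10% and 13.6%. The median GC content was 58.7% in subunit promoters and 59.7% in promoters of genes with a single-gene probe set. Matches of different motifs may share bases, and a match describes the sequence and is not a binding site.

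The letters of both factors were held by 3 subunit promoters (4.8%), against 1.13% of all 32851, whose median GC content was lower, at 52.7%. No such share was computed for promoters of genes with a single-gene probe set, and the joint occurrence was not tested. The 3 promoters are those of Sdhd, Cox6a1 and Atp5k. They are shown because they hold the letters of both factors, which the choice of members did not use. Capitals mark the matches, bases run 5' to 3' on the gene's strand, which is the minus strand for all of them, and only bases before the start are printed. The stretches lie at chr9:50603877-50603940 for Sdhd, chr5:115348959-115349132 for Cox6a1 and chr5:108434400-108434461 for Atp5k. The GABPA letters of Atp5k lie after the start and are not in its stretch, and those of the others stand on the opposite strand, as CTTCCGG.
Sdhd: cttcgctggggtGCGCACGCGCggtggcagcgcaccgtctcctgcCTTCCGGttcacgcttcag
Cox6a1: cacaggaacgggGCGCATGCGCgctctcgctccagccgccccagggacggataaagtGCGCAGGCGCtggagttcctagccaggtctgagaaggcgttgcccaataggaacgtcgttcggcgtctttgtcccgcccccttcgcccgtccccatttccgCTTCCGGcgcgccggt
Atp5k: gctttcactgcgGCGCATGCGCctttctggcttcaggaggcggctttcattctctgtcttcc
Their transcripts differed between the diets by -0.14, 0.09 and -0.07 on the log2 scale, with limma's adjusted p-values of 0.830, 0.918 and 0.980. Atp5k, which encodes a small membrane subunit of the ATP synthase, read 475, 411 and 264 on the high-fat and 398, 408 and 365 on the low-fat arrays.

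The tissue label was checked on hepatocyte markers. Albumin read 34920 to 49245 over the 6 arrays, and all 10 probe sets for hepatocyte markers were above the floor. Macrophage markers had a summed intensity of 8514 to 9666 on the high-fat and 6039 to 7049 on the low-fat arrays, with 0 of 10 tested probe sets called. In bulk liver RNA, fewer cells of a type and less RNA per cell cannot be told apart. Pancreatic acinar markers, 4 probe sets, summed to 9209 on high-fat array 2 and 5635 on low-fat array 2 and to 1738 to 3543 on the others. Their part in the subunit values was not tested. Of 5 probe sets for brown fat markers 1 was called, that of Cidea, a lipid droplet protein, at 1056, 2557 and 3688 against 40.2, 81.8 and 155 with an adjusted p of 0.00258 by limma. The defining marker Ucp1 gave log2 fold changes of 0.04 and -0.08. Elovl3 read 284, 293 and 318 against 125, 165 and 177, with a log2 fold change of 0.95 (limma's adjusted p 0.180), and Dio2 gave 0.28. Of the tested probe sets for markers of adipocytes (4), heart muscle (3) and erythroid cells (3), 0 were called.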

How the data were processed

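The deposited table, made by the authors, holds a linear intensity for each probe set on each array. How it was computed is not given in the sources used here. Arrays appear scaled as wholes: the mean without the lowest and highest 2% was 500.4 on each. Such scaling cannot show a shift of most transcripts. Symbols came from the platform annotation; the gene IDs of all 100 members were found in RefSeq's gene table (GRCm38.p6), with 0 symbols changed. A further 10 probe sets with several symbols, at least one matching the rule, were left out. Of the 100 members 37 carry a suffix letter before _at. Without suffixed probe sets 54 members were tested and 0 were called.

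Intensities under the pooled 30th percentile, 68.9, were set to it and log2 was taken. Probe sets with 3 or more arrays above it were kept, 66 control probe sets left out, and 8950 fitted with limma 3.58.1 in R 4.3.3 (lmFit, eBayes with a trend), two-sided, with Benjamini-Hochberg adjustment over all of them. The code of the fit was run on simulated data with independent errors, which cannot show how it handles shifts of whole arrays. Groups and numbers came from the sample titles. The 3 arrays per diet limit the precision.

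Array values (for some under the floor, a range or that fact alone) are given for the 3 members with the smallest p in each complex, isoform sets, and genes whose probe sets differ in sign; others named were chosen after their values were seen. Members, lists and this rule were chosen with earlier results of these data known. Alternatives covered scaling, floor, filter, variance model, array weights, a replicate block, the Gapdh ratio, probe set choice and arrays left out. Protein sequences were not used here.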

Additional observations from a re-analysis of the deposited data

How the results depend on the processing

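In all 21 alternatives 0 subunit probe sets were called, and the lowest adjusted p was 0.0540, with the Gapdh ratio as a covariate. Calls over all probe sets numbered 8 without a filter, 20 without the variance trend, 38 without both arrays numbered 3, and 26 to 75 with 1 array left out. With the replicate block they numbered 103, against 74. The block changed no subunit call. Deviations of same-numbered arrays correlated at 0.07, 0.11 and 0.31. High-fat array 1 correlated best with low-fat array 2, at 0.11, and high-fat arrays 2 and 3 with the low-fat array of their own number. Pairs of an array numbered 3 with a differently numbered array of the other diet correlated at -0.21 to -0.12. In the main fit the numbers were not taken to pair the samples, and what the arrays numbered 3 may share was not tested. Median log2 fold changes moved past the spread between arrays for complex II (0.14) and complex IV (0.08) without both arrays numbered 3, and for complex III with the covariate (-0.19). With 1 array left out, that of complex IV ran from -0.08 to 0.07. The value of 0.07, without high-fat array 3, was past that spread too. The cause was not tested. Of 766 values of named probe sets under alternatives, 765 moved by less than the spread between arrays, the exception being Ndufa12 with the lower floor, and 0 became calls. Dim probe sets limit what can be said of Cox5a, Cox7a1, Cox8a and Ndufa12.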

Other observations

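Several subunit genes were read only, or also, by probe sets that the annotation assigns to more than 1 gene, so they name no single transcript. The pair shared by Cox7c, a complex IV subunit, and Gm12338 read 19350, 19806 and 18323 on the high-fat arrays and 19651, 18562 and 17205 on the low-fat arrays on one probe set, and 14715, 14874 and 12322 against 15349, 13165 and 11626 on the other. The pair shared by Ndufs6 and Ndufs6b, of complex I, read 4664, 4838 and 3370 against 4623, 4544 and 3672, and 3639, 3643 and 2605 against 3489, 3306 and 2569. On each of these 4 probe sets the arrays numbered 3 were the lowest of their diet, and the diets overlapped. Among the other probe sets with several symbols, the arrays numbered 3 were also the lowest of both diets for Atp5c1 and Ndufa11. They were not for Ndufab1, Atp5md, Ndufs5 and Ndufb4. The probe set shared by Ndufb4, Ndufb4b and Ndufb4c read 154, 139 and 178 against 404, 154 and 314.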
